A study of Homo sapiens with 6 samples.

Results

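The cytosolic ribosomal protein genes were taken as the protein-coding entries whose symbol is RPL or RPS followed by a number, with an optional letter and number after it, together with RPLP0, RPLP1, RPLP2 and RPSA. That rule used names and biotype alone and found 84 genes among the 58938 entries of the table, 52 of the large ribosomal subunit and 32 of the small one. They were measured in HCT116, an established human colorectal cancer cell line, by RNA sequencing of 6 libraries. In 3 libraries the cells, labelled wild type, were a vector control. In the other 3 a plasmid overexpressed MST3, a serine/threonine kinase of the GCKIII family and the product of STK24, and the series title links MST3 to PGAM5 and to YAP activation in colorectal cancer. Cells were transfected with a lipid reagent at 60% density, with new medium at 6 hours and RNA collection at 30 hours. All 6 libraries therefore come from 1 cell line and 1 time, and the sources used here do not give the promoter of the plasmid or the share of cells that took it up. Replicates are numbered 1 to 3 per group, with no word on whether they were separate cultures, so p-values measure just the spread among these 6 samples, which may be technical.

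Each ribosome holds a single copy of nearly every ribosomal protein, the acidic stalk proteins being the known exception, and growing cells devote a large part of their mRNA to making them. Nearly all of these mRNAs belong to the TOP class, in which transcription starts at a C followed by an unbroken run of pyrimidines (C or T). LARP1 binds this terminal oligopyrimidine, and mTOR signalling sets whether such mRNAs are translated, so protein output can change with no change in mRNA. The libraries measured mRNA alone.

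The FPKM values (fragments for each kilobase of gene, scaled by library) rest on 17296201 to 17708029 reads per library in the vector group and 15289213 to 17209736 in the MST3 group. MST3 replicate 1 had the fewest reads, and it had reads on 27442 genes, against 25099 to 25501 in the other 5 libraries. STK24 (ENSG00000102572, chr13:98445185-98577940, minus strand, GRCh38) stood at 17.1, 17.4 and 17.4 FPKM in vector cells and at 63.7, 72.2 and 76 FPKM in MST3 cells, replicates 1 to 3 in turn. It rose by 1.97 on the log2 scale (SE 0.09, limma, adjusted p = 0.000998), and its exact permutation p was 0.1, the lowest possible with 3 libraries a group. It was the only gene called among 13036 tested. Of 8 epithelial and colorectal markers 6 had a mean of at least 1 FPKM, among them KRT19, KRT8 and EPCAM, while LGALS4 and VIL1 were near 0. The summed epithelial markers came to 1614 to 1664 FPKM in vector and 1531 to 1939 FPKM in MST3 libraries. The 4 leukocyte markers summed to at most 0.455 FPKM, the 3 endothelial ones to at most 0.27 FPKM and the 4 erythroid ones to at most 0.822 FPKM. Of the 4 fibroblast markers only COL1A1 passed 1 FPKM (mean of all libraries 4.25 FPKM).

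The start sites show what the mRNAs share in sequence. RefSeq start windows on GRCh38.p14, 15 bases before the start and 15 from it, were found for 67 of the 84 genes, 83 windows in all. An unbroken run of at least 5 C or T bases from the start base itself, on the gene's own strand, was present in 47 of the 83 windows (56.6%) and in 5.17% of the 35116 windows of all genes in the same RefSeq table. The start base was C in 62.7% of the ribosomal protein windows and in 14.7% of all windows. Among genes that are not paralogues, 46 of 62 had such a run. Below are the windows of some members on which the results turn. RPS23, RPL38, RPL41 and RPL39 are among those high in MST3 replicate 1, and RPL21, RPL35 and RPLP2 had the smallest p. RPSA had nearly equal values throughout, and the rest are 3 pairs of a gene and its paralogue. All windows shown of genes that are not paralogues have such a run, whereas RPS28 and RPS29, which are not shown, have none. Lower case is used for the rest of each window and capitals mark the run that begins at the RefSeq start.
RPS23 (chr5:82278340-82278369, minus strand): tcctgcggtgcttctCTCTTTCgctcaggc
RPL38 (chr17:74203663-74203692, plus strand): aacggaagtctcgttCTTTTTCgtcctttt
RPL41 (chr12:56116618-56116647, plus strand): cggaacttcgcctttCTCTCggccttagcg
RPL39 (chrX:119791616-119791645, minus strand): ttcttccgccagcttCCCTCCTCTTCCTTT
RPL21 (chr13:27251543-27251572, plus strand): cggccccgcctctttCCTTTCggccggaac
RPL35 (chr9:124861943-124861972, minus strand): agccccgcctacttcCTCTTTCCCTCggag
RPLP2 (chr11:809952-809981, plus strand): ttgcgtcggcgccttCCTTTTCCTCCCTgt
RPSA (chr3:39406705-39406734, plus strand): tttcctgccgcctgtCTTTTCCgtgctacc
RPL22 (chr1:6199581-6199610, minus strand): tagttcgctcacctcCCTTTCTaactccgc
RPL22L1 (chr3:170870181-170870210, minus strand): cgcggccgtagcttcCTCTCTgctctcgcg
RPL26 (chr17:8383179-8383208, minus strand): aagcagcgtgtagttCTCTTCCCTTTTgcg
RPL26L1 (chr5:172958714-172958743, plus strand): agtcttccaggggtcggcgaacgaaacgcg
RPS27 (chr1:153990747-153990776, plus strand): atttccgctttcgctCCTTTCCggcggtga
RPS27L (chr15:63157463-63157492, minus strand): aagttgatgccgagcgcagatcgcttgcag
The run of RPL39 has 19 bases and goes on past the end of its window. Of the 3 pairs, RPL22 and RPL22L1 both have a run, while RPL26L1 and RPS27L, unlike RPL26 and RPS27, have none at the RefSeq start shown. A run at an annotated start is a description of these letters, and translation was not measured.

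In the vector cells the 77 members that are not paralogues covered a wide range of FPKM. Their median was 211 FPKM, the level at the 90th percentile was 22.6 times that at the 10th, and 56 of all 84 members had a mean above 100 FPKM over the 6 libraries, a level reached by 2.45% of tested genes. RPS12, a small subunit protein, was the highest, with 1217 ± 64.6 FPKM (SD, n = 3), followed by RPS2, which lines the path of the incoming mRNA, with 1066 ± 147 FPKM. RPLP0, the base of the stalk that recruits translation factors, led the large subunit with 874 ± 36.2 FPKM, followed by RPL13A with 761 ± 10.5 FPKM and RPL8, a protein close to the peptidyl transferase centre, with 718 ± 73.5 FPKM. RPS12 and RPS2 were thus the only members with a 6-library mean above 1000 FPKM, and their vector values did not overlap those of RPLP0 except for RPS2 in vector replicate 2 (898 FPKM, against 869, 913 and 841 FPKM for RPLP0).

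**Figure D1:**
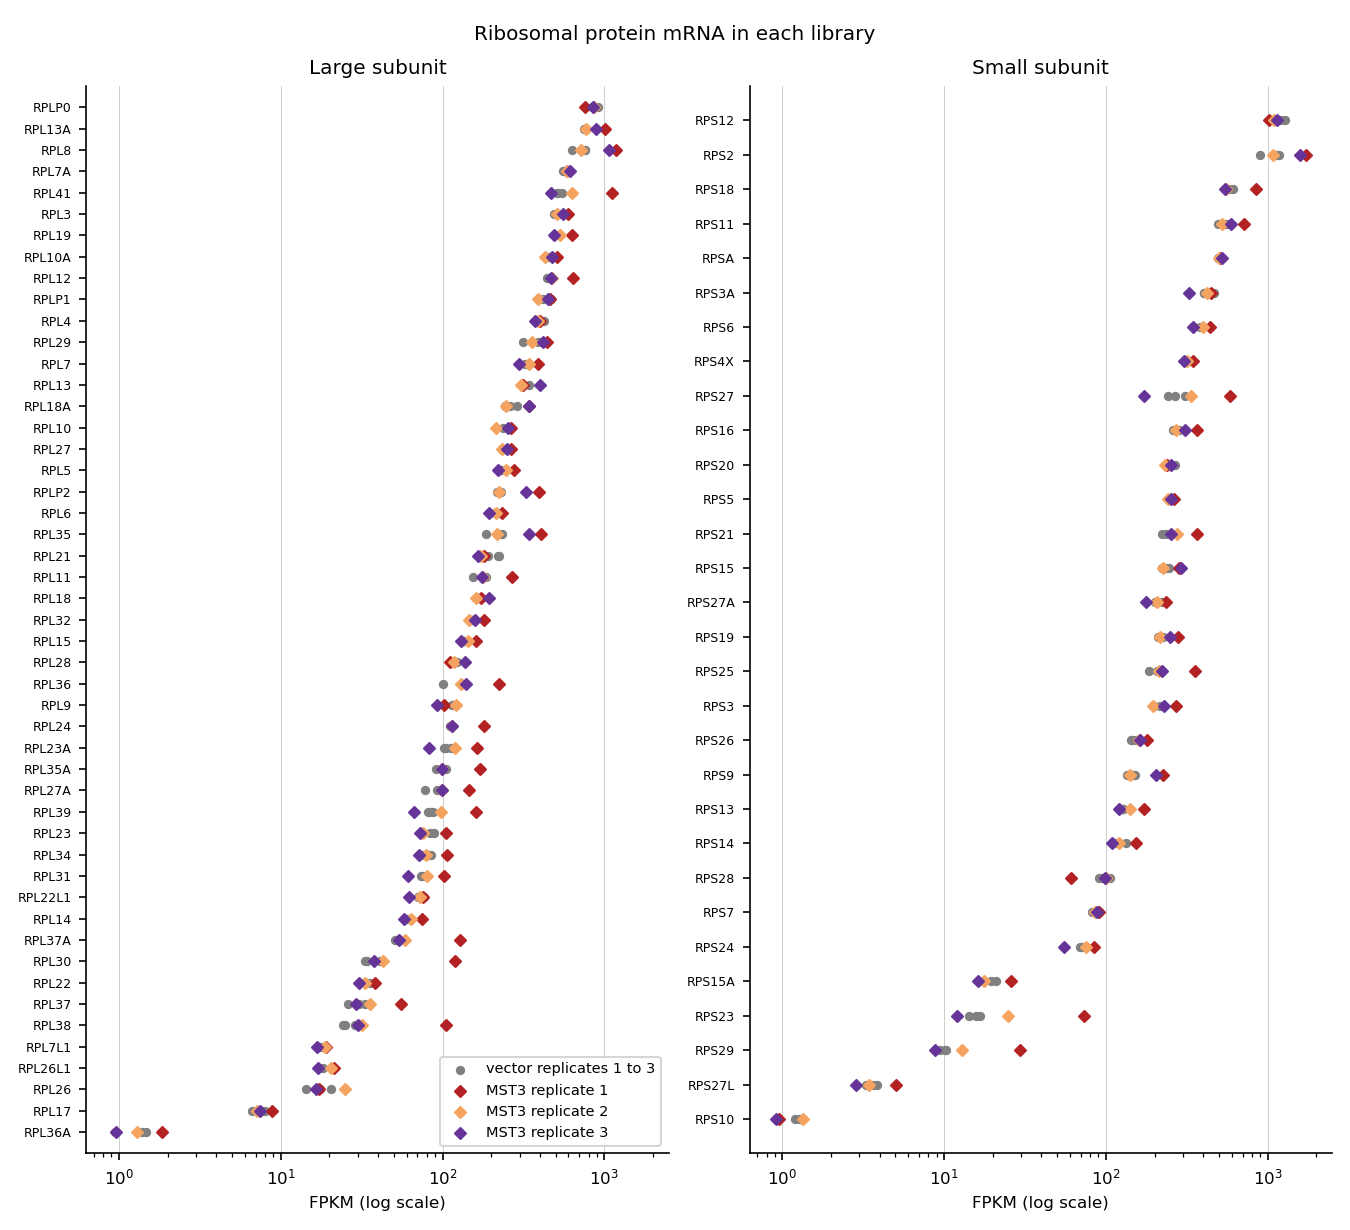
FPKM on a log axis of the 49 large subunit genes (left) and the small subunit genes (right) that passed the filter, leaving out genes that are not reported here, ordered by vector mean, with grey circles for the 3 vector libraries and diamonds for MST3 replicates 1, 2 and 3. For most genes all 6 points lie close together, while the red diamonds of MST3 replicate 1 lie to the right for RPL38, RPL30, RPL37A, RPS23 and RPS29.

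These FPKM levels depend on the length by which the authors divided. The listed length of every member equals the union of all its annotated exons, 767 bp for RPS12 to 9845 bp for RPS29, whereas the coding sequences are 75 to 1281 bp. The listed length was a median of 5.99 times the coding length and reached 58.6 times in RPS29. When the vector values were rescaled to coding length, the median of the 77 genes was 1195 FPKM and the ratio of the 90th to the 10th percentile was 5.47. RPL41, whose product is the shortest of the ribosomal proteins, was then the highest at 7596 rescaled FPKM, and RPS10, RPL36A and RPL17 were among the lowest. The rescaled values still hold reads on untranslated exon bases, whose length is left out. They are therefore too high where the coding sequence is a small part of the mRNA, as in RPL41 (75 of 469 bp). The top place of RPL41 depends on this divisor. RPS10 (mean 1.26 FPKM in vector), RPL36A (1.27 FPKM) and RPL17 (7.22 FPKM) share exon bases on the same strand with the readthrough genes RPS10-NUDT3, RPL36A-HNRNPH2 and RPL17-C18orf32, over 39.4, 8.40 and 32.7% of their own exon bases, a share that for RPL17 also counts 3 snoRNA genes. Those readthrough genes were listed at 0.248 FPKM or less in every library. Reads in the shared exons could have been left out of both genes by the authors' counting, which is not described in the sources used here, so the low levels of these 3 members are uncertain.

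No ribosomal protein gene passed the test between MST3 and vector cells. Of 81 members tested by limma with Benjamini-Hochberg adjustment over all 13036 genes, 0 had an adjusted p under 0.05 (smallest adjusted p = 0.719), where 0.00767% of all tested genes did. At an unadjusted p under 0.05, 1 member was higher (RPL35) and 1 was lower (RPL21), against 3.51% and 1.86% of all tested genes. The estimate was above 0 for 39 of 49 large subunit genes, with a median log2 difference of 0.09, and for 23 of 32 small subunit genes, with a median of 0.16. Over all tested genes the estimate was above 0 in 46.6% and its median was -0.01. In bulk RNA, a larger number of expressing cells and more RNA per cell cannot be told apart. The 95% interval of the difference lay within 1 log2 unit of 0 for 73 members and within 0.5 for 52, so larger differences are outside the intervals of most members. The other 8 intervals reached above 1, the furthest to 2.11.

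The higher medians rested on 1 library. Deviations were taken for each library as log2(FPKM + 1) minus the mean over the vector libraries. The median deviation of the large subunit genes was 0.27 in MST3 replicate 1 and 0.02 in both other MST3 libraries, while vector libraries had -0.02 to 0.02. For the small subunit it was 0.38, -0.00 and -0.01, against -0.02 to 0.02. MST3 replicate 1 was the highest of the 6 libraries for 37 of 49 large and 24 of 32 small subunit genes, together 61 of 81, and for 18.1% of all tested genes. It lay above every vector library for 64 members (79.0%, against 30.7% of all tested genes). MST3 replicate 2 did so for 28 members (34.6%, against 23.8%) and replicate 3 for 31 (38.3%, against 37.5%). Without MST3 replicate 1 the estimates were above 0 for 29 of 49 large and 17 of 32 small subunit genes, and both medians were 0.03. With MST3 replicate 2 alone set against the vector libraries, a fit added after the data were seen, the counts were 29 and 15 and the medians 0.02 and -0.00. The count at an unadjusted p under 0.05 in either direction was 2 with all libraries (2.47%, against 5.38% of all tested genes). It was 15 without MST3 replicate 2 (18.5%, against 19.6% of all genes in that fit) and 13 without MST3 replicate 3 (16%, against 6.67%). It was 1 without MST3 replicate 1 (against 3.47%) or vector replicate 3 (against 3.95%), and 0 without vector replicate 1 (against 3.41%) or 2 (against 2.29%). In none of these fits did a member pass the adjusted test (0 of 81).

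**Figure D2:**
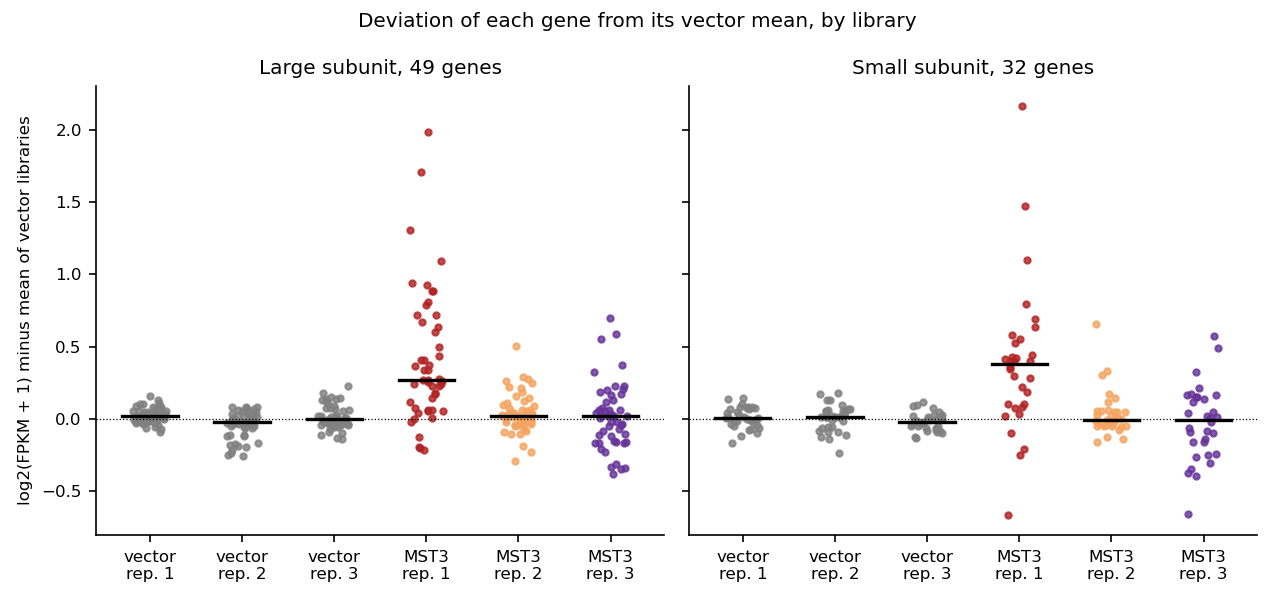
Deviation of each tested gene from its vector mean in log2(FPKM + 1), by library, for the large (left) and small (right) subunit, with a point for each gene and a black bar at the median. The bars lie near 0 in 5 libraries and at 0.27 and 0.38 in MST3 replicate 1, where 7 genes lie above 1.

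Groups did not overlap for 10 of the 81 members. MST3 was higher for 8 (RPL7A, RPL12, RPL24, RPL27A, RPL37A, RPL38 and RPS26 among them), 9.88% against 5.19% of all tested genes, and lower for 2 (RPL21 and RPS12), 2.47% against 6.7%. RPL7A, RPL12, RPL24, RPL37A and RPL38 are named here after their values were seen. For RPL7A, RPL12 and RPL24 the gap between groups was small, as in RPL24, with 112, 113 and 113 FPKM in vector cells and 179.7, 115 and 115 FPKM in MST3 cells. Here replicates 2 and 3 were barely above the vector libraries and replicate 1 was clearly higher. Across the 3 vector libraries the highest and lowest values were within 1.5-fold for 80 of 81 members, and across all 6 libraries for 50.

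RPL21 had the smallest p of the large subunit and was the lower of the pair at an unadjusted p under 0.05. RPL21 (ENSG00000122026, chr13:27251309-27256691, plus strand) had 219, 223 and 192 FPKM in vector cells and 181, 172 and 166 FPKM in MST3 cells. All 3 MST3 values were below all vector values, by a mean log2 difference of -0.28 (SE 0.098, 95% interval -0.51 to -0.054, limma adjusted p = 0.719). It is a gene with 66 annotated pseudogenes of the same name, and reads that fit a copy equally well could be counted in either. With these pseudogenes added, each divided by its own length, RPL21 came to 291, 295 and 267 summed FPKM in vector libraries. The MST3 libraries then had 347, 249 and 227. In this sum MST3 replicate 1 turned from below every vector library to the highest of all, while replicates 2 and 3 stayed below. A read on a pseudogene shorter than the 2249 bp of RPL21 weighs more in the sum than one on RPL21. The order in summed reads was not tested. RPL35 (ENSG00000136942, chr9:124857880-124861981, minus strand), a protein at the exit of the peptide tunnel, had 220.1, 185 and 233 FPKM in vector cells and 406, 217 and 343 FPKM in MST3 cells. Replicates 1 and 3 were above every vector library and replicate 2 lay among them, giving a log2 difference of 0.56 (SE 0.23, 95% interval 0.020 to 1.09, limma adjusted p = 0.719).

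The same order of libraries was seen in RPLP2, RPL8, RPS2 and RPS9. RPLP2 (ENSG00000177600, chr11:809647-812880, plus strand), an acidic protein of the stalk, had 228, 217 and 228 FPKM in vector cells and 394, 224 and 329.6 FPKM in MST3 cells (log2 difference 0.45, SE 0.20, limma adjusted p = 0.719). RPL8 (ENSG00000161016, chr8:144789765-144792587, minus strand) had 759, 633 and 762 FPKM in vector cells and 1177, 715 and 1076 FPKM in MST3 cells. RPS2 (ENSG00000140988, chr16:1962052-1964860, minus strand) had 1169.7, 898 and 1129.8 FPKM in vector cells and 1713, 1082 and 1579 FPKM in MST3 cells, a log2 difference of 0.43 (SE 0.19, adjusted p = 0.719). In each of them replicates 1 and 3 were high, and replicate 2 lay within the vector values. RPS9 (ENSG00000170889, chr19:54200742-54249003, plus strand), a protein that contributes to decoding accuracy, had 151, 135 and 146 FPKM in vector cells and 224, 142 and 203 FPKM in MST3 cells, again with replicate 2 inside the vector range. In all, 19 of 81 members had MST3 replicates 1 and 3 above every vector library and replicate 2 not.

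Other members with small p values had smaller gaps. RPL27A, a large subunit protein, had 92.6, 78.1 and 94.8 FPKM in vector cells and 146, 98.7 and 99 FPKM in MST3 cells. RPS26, which contacts the mRNA upstream of the start codon and is mutated in Diamond-Blackfan anaemia, had 143, 153 and 145 FPKM in vector cells and 180.4, 159 and 163 FPKM in MST3 cells. In both genes the lowest MST3 value was above the highest vector value. Their limma adjusted p was 0.719 for each. On the other side, RPS12 (ENSG00000112306, chr6:132814441-132817564, plus strand) had 1284, 1212 and 1155 FPKM in vector cells and 1024, 1089 and 1141 FPKM in MST3 cells. Every MST3 value was below every vector value, but the nearest, in MST3 replicate 3 and vector replicate 3, were close, and the log2 difference was -0.17 (SE 0.096, adjusted p = 0.719).

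The largest deviations of single libraries were in MST3 replicate 1 and mostly in mRNAs of short coding length. RPS23, RPL38, RPL30, RPS29, RPL37A, RPS27 and RPL41 were the 7 members more than 1 log2 unit above their vector mean there; RPS23, RPL38, RPL30, RPS29 and RPL37A were chosen after their values were seen. RPS23 (ENSG00000186468, chr5:82273358-82278577, minus strand), a protein of the decoding centre, had 14.2, 15.7 and 16.7 FPKM in vector cells and 72.9, 25 and 12 FPKM in MST3 cells. Replicate 1 was far above the rest, replicate 2 was above every vector library and replicate 3 below every one, and the log2 difference of the groups was 0.82 (SE 0.55, limma adjusted p = 0.719). RPL38 (ENSG00000172809, chr17:74203582-74210655, plus strand), known from mice for its part in the translation of Hox mRNAs, had 24.2, 24.8 and 28.8 FPKM in vector cells and 106, 31.9 and 29.9 FPKM in MST3 cells. Its replicates 2 and 3 were just above the highest vector library and replicate 1 was far above, for a log2 difference of 0.83 (SE 0.44, adjusted p = 0.719). RPL30 had 34.3, 33.1 and 41 FPKM in vector cells and 119, 42.9 and 37.6 FPKM in MST3 cells, and RPL37A, a zinc-finger protein, had 50.6, 51.4 and 52.2 and 129, 58.7 and 53.7 FPKM. In RPL30 replicate 3 lay inside the vector range, and in RPL37A all 3 MST3 libraries were above it. RPS29, a small zinc-finger protein of the small subunit, had 9.37, 10.2 and 10.3 FPKM in vector cells and 29.4, 12.8 and 8.80 FPKM in MST3 cells, with replicate 3 the lowest of all 6.

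RPL41, RPS27 and RPL39, all of short coding length, had a spread in both directions. RPL41 (ENSG00000229117, chr12:56116586-56117943, plus strand), with a coding sequence of 75 bp, had 512, 515 and 544 FPKM in vector cells and 1118, 635 and 469 FPKM in MST3 cells. RPS27, a zinc-finger protein of the small subunit, had 242, 306 and 268 FPKM in vector cells and 581, 334 and 172 FPKM in MST3 cells. RPL39, which lines the peptide exit tunnel, had 84.1, 87.6 and 81.3 FPKM in vector cells and 161, 98.1 and 66.4 FPKM in MST3 cells. In each of these 3 genes MST3 replicate 1 was the highest and MST3 replicate 3 the lowest of the 6 libraries, so the group means differ by less than the MST3 libraries differ among themselves. Without MST3 replicate 1 the log2 difference of RPS27 was -0.18 and that of RPL39 -0.06, against 0.25 and 0.27 with all libraries.

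**Figure D3:**
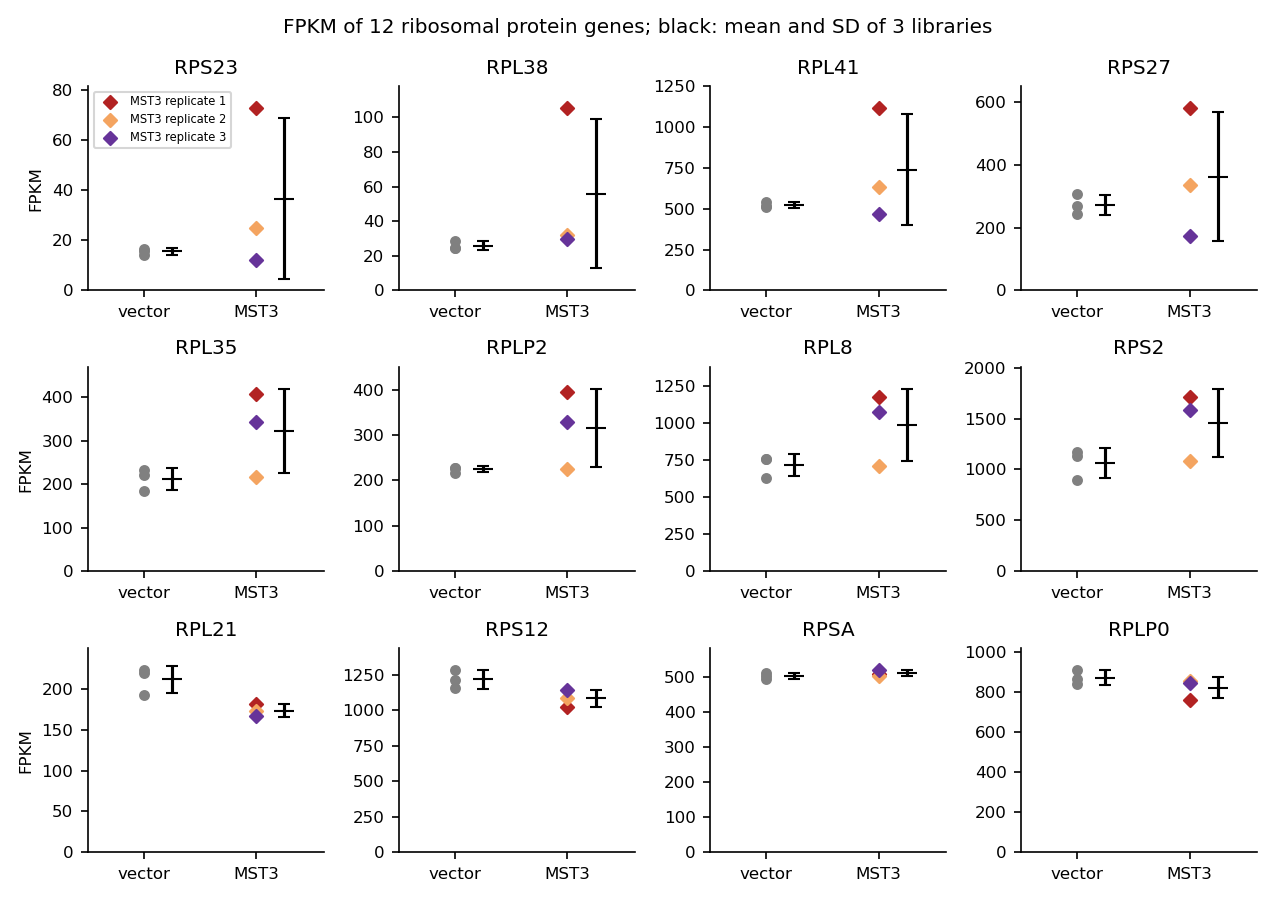
FPKM of 12 members in each library, with grey circles for the vector libraries, diamonds for MST3 replicates 1 to 3 and black marks for the mean and SD of the 3 libraries of each group, on linear axes that start at 0. In the top row MST3 replicate 1 is the highest, in the middle row replicates 1 and 3 are high and replicate 2 lies with the vector libraries, and in the bottom row RPL21 and RPS12 are lower in every MST3 library while RPSA is level.

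Coding length went with the deviation in MST3 replicate 1. The median deviation was 1.01 for the 10 members with a coding sequence of up to 300 bp, 0.36 for the 29 with 301 to 450 bp, 0.30 for the 26 with 451 to 650 bp and 0.13 for the 16 with 651 bp or more. Other tested protein-coding genes followed the same order of medians at a lower level, with 0.27 (217 genes), 0.16 (479), 0.07 (903) and -0.07 (9194). Spearman's rho between coding length and this deviation was -0.43 over the 81 members and -0.35 over the 10793 other genes, as a description across genes that share a library. It was -0.58 for the 49 large subunit genes and -0.19 for the 32 small subunit genes. Without the 10 shortest members rho was -0.31, and over the 55 members of 301 to 650 bp it was -0.23. In MST3 replicate 2 the shortest members had a median deviation of 0.24 and the other 3 groups 0.01 to -0.01, and in replicate 3 the shortest had -0.09. An exception among the short members was RPS28, a small subunit protein with a coding sequence of 207 bp, which was lowest in MST3 replicate 1 and is described with its pseudogenes. MST3 replicate 1 also had the fewest reads and the most genes with reads, and the part of these in the values was not tested.

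**Figure D4:**
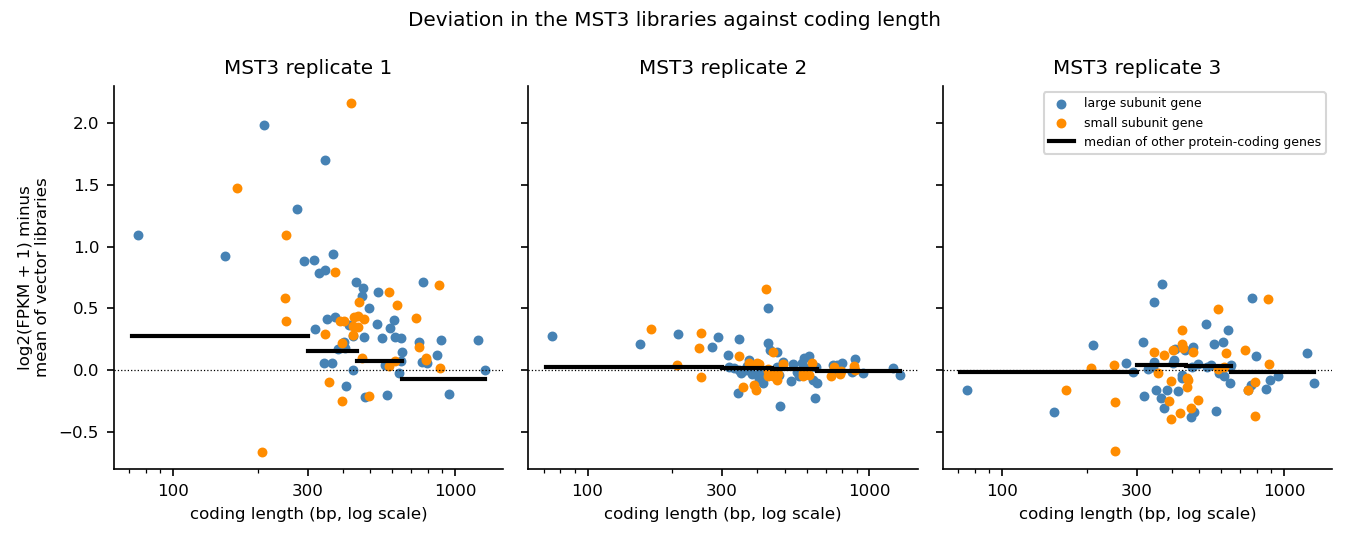
Deviation of each member from its vector mean in log2(FPKM + 1) against coding length in bp on a log axis, in MST3 replicates 1 to 3, with blue points for large and orange points for small subunit genes. Black bars are medians of the other tested protein-coding genes in 4 length ranges; in replicate 1 both the members and the bars lie higher at short lengths (0.27 down to -0.07 for the bars).

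In MST3 replicate 3 the members were ordered by GC content of the coding sequence. All 12 members under 45% GC lay below their vector mean, with a median deviation of -0.28. The median was -0.09 for the 25 members of 45 to 50%, 0.04 for the 26 of 50 to 55% and 0.23 for the 18 of at least 55%, of which 17 lay above the vector mean. RPL35 (57.2% GC), RPL8 (61%), RPS2 (61.8%), RPLP2 (56.2%) and RPS9 (60.5%) are among the GC-rich members. RPL21 (43.5%), RPL39 (42.5%) and RPS24 (44.4%, chosen after its value was seen), with deviations of -0.34, -0.34 and -0.39, are among the GC-poor ones. Other protein-coding genes had medians of -0.19, -0.13, -0.03 and 0.23 in the same 4 ranges. Spearman's rho between GC and deviation in this library was 0.72 over the 81 members (0.75 for the large and 0.70 for the small subunit) and 0.78 over the other genes. Over the 51 members of 45 to 55% GC it was 0.34. In MST3 replicate 1 rho was 0.09 over the members and 0.24 over the other genes, and in replicate 2 it was -0.11 and -0.28. The vector libraries also had a trend over the other genes, with a rho of 0.38, -0.52 and 0.29 in replicates 1 to 3, while over the members it was 0.18, -0.19 and 0.17. The deviations of the members in MST3 replicates 1 and 2 had a rho of 0.53, those in replicates 1 and 3 of 0.20 and those in replicates 2 and 3 of -0.09, all of them sharing the vector means.

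**Figure D5:**
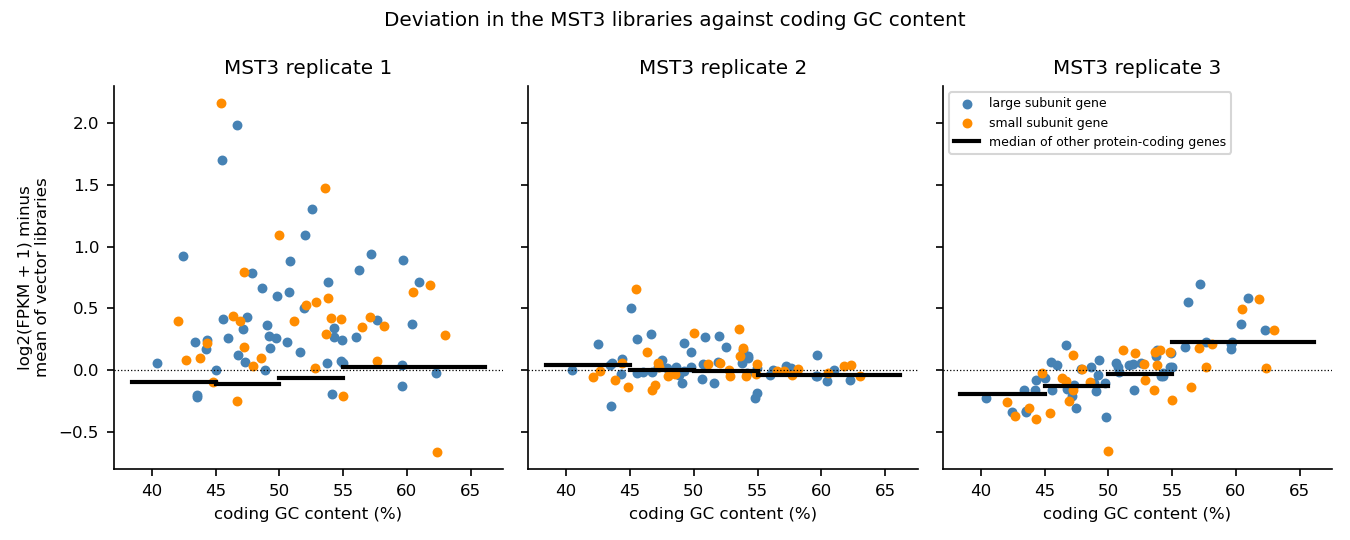
Deviation of each member from its vector mean in log2(FPKM + 1) against the GC content of its coding sequence in percent, in MST3 replicates 1 to 3, with blue points for large and orange points for small subunit genes and black bars for medians of the other tested protein-coding genes in 4 GC ranges. In replicate 3 members and bars go up together from left to right, which is not seen in replicate 2.

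The limma fit on values from which the trends with coding length and GC of each library had been removed, an alternative added after the data were seen, was run on protein-coding genes. It gave a median log2 difference of 0.08 for the large and 0.06 for the small subunit, with 39 of 49 and 21 of 32 genes above 0, 5 members (6.17%, against 8.75% of the genes in that fit) at an unadjusted p under 0.05 and 0 at an adjusted p under 0.05. Coding length and GC were available for 99.95% of the tested protein-coding genes.

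Members were then read by their roles in the ribosome, and none of those named passed the test. In the stalk, RPLP0 had 869, 913 and 841 FPKM in vector cells and 762, 858 and 847 FPKM in MST3 cells, with overlap, and RPLP1 had 450.2, 468 and 416 and 463, 390.4 and 452 FPKM, also overlapping. RPLP2, their partner, was the stalk gene with high values in replicates 1 and 3, so the 3 stalk genes did not share an order of libraries. RPL5 and RPL11, which enter the large subunit together with an rRNA and can also bind MDM2 and so raise p53, had 228, 245 and 226 and 185, 154 and 180.3 FPKM in vector cells and 276, 248 and 220.3 and 268, 178 and 176 FPKM in MST3 cells. Both were highest in MST3 replicate 1, and the other MST3 libraries overlapped the vector range or lay just beside it. RPL3, a protein of the peptidyl transferase centre, had 505 ± 15.4 FPKM in vector cells and 555 ± 42.4 FPKM in MST3 cells (SD, n = 3). RPL10, which joins late in large subunit maturation, had 251 ± 12.9 and 244 ± 26.5 FPKM. Their 95% intervals on the log2 scale, -0.095 to 0.36 and -0.30 to 0.21, include 0.

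In the small subunit, RPSA, also known as the laminin receptor precursor, was level across the libraries. Its values were 503, 510.0 and 495 FPKM in vector cells and 509, 502 and 519 FPKM in MST3 cells, with a log2 difference of 0.022 (95% interval -0.17 to 0.22). RPS6, the substrate of the S6 kinases, had 393, 392 and 382 FPKM in vector cells and 443, 396 and 348 FPKM in MST3 cells. Replicate 1 was above, replicate 2 just above and replicate 3 below the vector values. RPS3, at the mRNA entry site, had 203 ± 11.1 FPKM in vector cells and 232 ± 37.9 FPKM in MST3 cells (SD, n = 3), RPS14 had 121 ± 10.5 and 128 ± 23.1 FPKM, and RPS19, the gene most often mutated in Diamond-Blackfan anaemia, had 216 ± 8.23 and 248 ± 30.5 FPKM. Each of these 3 was highest in MST3 replicate 1 and had at least 1 MST3 library inside or below the vector range. RPS18 had 609.6, 542 and 574 FPKM in vector cells and 843, 555 and 542 FPKM in MST3 cells, with only replicate 1 above the vector range, and its log2 difference was -0.07 without that library, against 0.14 with it. RPS4X, encoded on the X chromosome, had 324 ± 3.21 and 323 ± 22.7 FPKM, and RPS27A, which is made as a fusion with ubiquitin, had 219.6 ± 17.4 and 207 ± 28.9 FPKM, so that neither differed by more than the SD of the MST3 group.

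Of the 7 paralogues among the members, 4 passed the filter on low values (RPL22L1, RPL26L1, RPS27L and RPL7L1). RPL22, whose protein is partly exchangeable with that of RPL22L1, had 32.8, 33.7 and 35.8 FPKM in vector cells and 38.5, 33.3 and 30.3 FPKM in MST3 cells. RPL22L1 had 76.8, 71.1 and 70.4 FPKM in vector cells and 75.9, 72.7 and 61.9 FPKM in MST3 cells. The paralogue thus had the higher FPKM in every library, and in both genes MST3 replicate 3 was the lowest. Divided by coding length the vector means were 415 rescaled FPKM for RPL22 and 462 for RPL22L1, which keeps that order. RPL26 had 17.6, 14.3 and 20.4 FPKM in vector cells and 17.3, 24.8 and 16.4 FPKM in MST3 cells, and RPL26L1 had 17, 18.2 and 17.2 and 21.3, 20.5 and 17 FPKM. Their FPKM ranges overlapped, but the listed lengths are 2513 bp for RPL26 and 1164 bp for RPL26L1. The coding length is 435 bp in both, so a comparison of levels within this pair depends on the divisor. RPL26 also shares 14.3% of its exon bases with another gene on its strand, so its level is uncertain. RPL26 was highest in MST3 replicate 2, where most members lay close to the vector libraries. RPS27L, known as a p53 target, had 3.85, 3.64 and 3.31 FPKM in vector cells and 5.06, 3.43 and 2.84 FPKM in MST3 cells, with the same order of libraries in the MST3 group as RPS27. Rescaled to coding length its vector mean was 130.4 FPKM, and that of RPS27 was 1117 FPKM. RPL7L1, which acts in ribosome assembly, had 18.1, 18.7 and 17.8 FPKM in vector cells and 19.1, 18.8 and 16.7 FPKM in MST3 cells, with overlap. RPL3L, the paralogue of heart and skeletal muscle, had 0.320 ± 0.0631 FPKM in vector cells and 0.227 ± 0.152 FPKM in MST3 cells (SD, n = 3) and was not tested. RPL39L and RPL10L, known from male germ cells, were listed at 0 in all 6 libraries, as was EEF1G, which every cell uses, so a listed 0 need not mean absence.

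Pseudogenes bear on several members. The annotation holds 1144 pseudogenes named after 77 of the 84 members, up to 91 for RPL23A, and a processed copy can take reads from its parent. RPS28 (ENSG00000233927, chr19:8321158-8323340, plus strand) had 90.7, 106 and 94.6 FPKM in vector cells and 61, 100.1 and 98.1 FPKM in MST3 cells, lowest in MST3 replicate 1. Its pseudogene RPS28P7 (ENSG00000227097, chr11:82689559-82689768, plus strand), chosen after its values were seen, is 210 bp long and had 504, 540.4 and 517 FPKM in vector cells and 2220.3, 801 and 805 FPKM in MST3 cells. There replicate 1 was the highest, and all 3 MST3 libraries were above all vector libraries (log2 difference 1.11, SE 0.37, limma adjusted p = 0.719). With all RPS28 pseudogenes added, RPS28 came to 595, 647 and 612 summed FPKM in vector and 2281, 901 and 903 in MST3 libraries, and the order of replicate 1 turned from lowest to highest. Each locus is divided by its own length in this sum, 2119 bp for RPS28 and 210 bp for RPS28P7. A read on RPS28P7 thus weighs far more than a read on RPS28, and the rise of the sum is not a rise in reads of that size. Which of the loci the reads came from was not tested. RPS2P5, a copy of RPS2, had 472, 448 and 551 FPKM in vector cells and 848, 541 and 903 FPKM in MST3 cells, with replicates 1 and 3 high and replicate 2 inside the vector range, as in RPS2. RPL39P3 had 158, 208 and 237 FPKM in vector cells and 226, 387 and 132 FPKM in MST3 cells, with replicate 2 highest, which differs from RPL39. RPL9P9, at 364 ± 29.6 FPKM in vector cells and 341 ± 22.4 FPKM in MST3 cells, had higher FPKM than RPL9 itself (117 ± 2.39 and 105 ± 14.8 FPKM, SD, n = 3). The listed lengths behind these values are 717 bp for RPL9P9 and 5022 bp for RPL9. In reads RPL9 was the higher, with a vector mean of 10213 against 4546 for RPL9P9. These pseudogenes and RPL9 were also chosen after their values were seen. In addition, 28 members hold 60 snoRNA genes within their bounds, and snoRNAs are processed out of the introns of these hosts.

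Summed over the genes, the large subunit took 3.91, 3.82 and 4.12% of all FPKM in vector replicates 1 to 3 and 4.92, 4.11 and 4.35% in MST3 replicates 1 to 3. The small subunit took 2.99, 2.94 and 3.10% in vector and 3.67, 3.09 and 3.24% in MST3 libraries. For the large subunit replicates 1 and 3 were above every vector library and replicate 2 was not, and the same holds for the small one. Shares were also taken of protein-coding FPKM alone, a sum that leaves out mitochondrially encoded genes as well as noncoding genes. By these shares replicate 1 was still above every vector library for both subunits. Replicate 3 was just above the vector libraries for the large subunit (5.53%, against 5.23 to 5.52%). For the small one it lay inside their range (4.12%, against 4.02 to 4.23%). As shares of all FPKM, the differences of the means were 0.509 and 0.322 percentage points, and 0.279 and 0.154 without MST3 replicate 1. Mitochondrially encoded transcripts took 23.1, 20.7 and 17.0% of all FPKM in vector and 21.0, 18 and 14.8% in MST3 libraries. Their part in the shares of all FPKM was not tested apart from that of noncoding genes. The ratio of large to small subunit FPKM was 1.306, 1.300 and 1.329 in vector and 1.341, 1.330 and 1.342 in MST3 libraries. The subunits thus kept nearly the same proportion in all libraries. Every MST3 library was still above every vector library, the nearest being 1.330 and 1.329. With the pseudogenes added, the difference of the small subunit was 0.717 percentage points, and that of the large one 0.597.

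A list of 4 further ribosomal proteins lies outside the rule of names. FAU, a ubiquitin-like fusion that yields a small subunit protein, had 116, 116 and 116 FPKM in vector cells and 169, 113 and 138 FPKM in MST3 cells. RPL36AL had 101, 84.5 and 103 and 146, 104 and 87.9 FPKM, and RACK1, a scaffold on the head of the small subunit, had 205, 212 and 211 and 199, 220.2 and 202 FPKM. FAU and RPL36AL were highest in MST3 replicate 1, as most members were, and RACK1 was not. In the list 2 of 4 genes had an estimate above 0, with a median of 0.09, the groups overlapped in each and 0 passed.

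Genes that act with the ribosomal proteins were read as 3 lists and the mitochondrial ribosomal proteins as a further one. TOP mRNAs for translation factors and related proteins had an estimate above 0 for 7 of 18 tested genes, with a median of -0.08. Their median deviation in MST3 replicate 1 was -0.07, where the ribosomal protein genes had 0.34. The lists were not matched for coding length, which went with the deviation in that library. At 651 bp or more, ribosomal protein genes had a median of 0.13 and other protein-coding genes -0.07. The part of length in this contrast was not tested. Among these TOP mRNAs EEF1A1, for the elongation factor that brings tRNAs, is the best known. NOP53, a factor of large subunit assembly, had 42.3, 36.6 and 39.3 FPKM in vector cells and 58.9, 40.1 and 59.6 FPKM in MST3 cells. NACA, a chaperone of nascent chains, had 32.9, 35.4 and 33.5 and 26.1, 34.3 and 28 FPKM. In both the groups overlapped, NOP53 with replicates 1 and 3 high and NACA with replicates 1 and 3 low. Of 13 chaperones and importers of ribosomal proteins 6 had an estimate above 0, with a median of -0.00. TSR2, the escort of RPS26, had 7.60, 5.78 and 7.40 FPKM in vector cells and 13.3, 8.26 and 9.09 FPKM in MST3 cells, with no overlap (limma, adjusted p = 0.719), and the importin IPO5 had 46.8, 51.3 and 46.5 and 33.3, 47.2 and 40.1 FPKM.

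Of 18 regulators of ribosomal protein mRNA and of mTOR signalling 7 had an estimate above 0, with a median of -0.05. EIF4EBP1, a repressor of cap-dependent translation that mTOR switches off, had 58.5, 48 and 67.8 FPKM in vector cells and 72.1, 66.6 and 84.5 FPKM in MST3 cells. MTOR itself had 10.7, 12.1 and 10.8 FPKM in vector cells and 8.18, 10.2 and 10.5 FPKM in MST3 cells. EIF4EBP1 overlapped between groups by 1 MST3 library, and MTOR was below every vector library in all 3 (limma, adjusted p = 0.719). LARP1, the reader of the TOP start, had 22.9, 22.7 and 22.4 and 18.9, 21.1 and 21.6 FPKM. Mitochondrial ribosomal proteins, encoded in the nucleus and without a part in the cytosolic ribosome, had an estimate above 0 for 57 of 75 tested genes, a median of 0.12 and median deviations of 0.25, 0.04 and 0.08 in MST3 replicates 1 to 3. That is close to the 62 of 81, 0.11 and 0.34, 0.02 and 0.01 of the cytosolic ones. At an unadjusted p under 0.05, 7 of the 75 (9.33%, against 3.51% of all tested genes) were higher and 0 (against 1.86%) lower, and 0 passed the adjusted test. The difference between these lists was not tested.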

How the data were processed

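The authors deposited 1 table with an FPKM value for each gene in each of the 6 libraries. Per the submitters' processing notes, reads were handled with HISAT2. Its version, how reads were counted and with which strand setting, and the build are not given in sources used here. All 58735 entries with an Ensembl identifier lie at the same position in GENCODE 29 on GRCh38, so that annotation gave coordinates, coding lengths and GC content. An FPKM value times gene length was a whole multiple of 1 step in 100.0% of values (tolerance 0.01), which gave the reads behind each value. Tested members had 36 to 65930 reads per library.

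The test was limma 3.58.1 (R 4.3.3; lmFit and trended eBayes) on log2(FPKM + 1) for genes averaging 1 FPKM or more, two-sided, with Benjamini-Hochberg adjustment over all of them and a threshold of 0.05. Differences on this scale are too small for genes of low FPKM. Alternatives were another pseudocount (0.1), other filters, scalings and variance models, the replicate number as a block, voom (limma) on recovered reads, length and GC trends removed, protein-coding genes alone, and each library left out. Python 3.11.15, pandas 2.3.3, numpy 2.4.6, scipy 1.17.1 and matplotlib 3.10.9 were used for the rest.

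The members, the companion lists and the rule for named genes were chosen with earlier results of these data known. The rule names STK24, in each subunit the 5 tested members with the smallest p and the 3 with the highest mean FPKM, a panel of members, the members that failed the filter, and 2 genes per companion list; a few genes it names are not reported here. LARP1, EEF1A1, EEF1G and the marker genes fall outside it, as do the members said in the report to be chosen after their values were seen.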

Additional observations from a re-analysis of the deposited data

How the results depend on the processing

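STK24 was the only gene called, and 0 ribosomal protein genes were called, under all 21 alternatives. The count of members at an unadjusted p under 0.05 (2 of 81) was 1 with a filter of 0.1 FPKM or none (against 5.08 and 4.32% of all genes in the same fit), 4 with a filter of 5 FPKM (5.52%), 6 with equal FPKM sums (4.68%), 8 with protein-coding genes alone (6.31%), 12 by voom on recovered reads (6.65%) and 0 to 15 with 1 library left out. It was 5 with length and GC trends removed (8.75%) and 9 with MST3 replicate 2 alone (4.99%), both added after the data were seen. That last fit has 1 MST3 library, which is assumed to vary like the vector ones, and gave 15 small subunit genes above 0 and a small subunit median of -0.0042. With 1 library left out, the medians were 0.034 to 0.17 (large) and 0.027 to 0.21 (small). The small subunit share with pseudogenes added differed by 0.717 percentage points, against 0.322 without them. That share takes in the FPKM of the pseudogenes, RPS28P7 among them. The cause of the other changes was not tested, beyond fewer libraries or other genes in a fit.

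With the replicate number as a block 8 members were at an unadjusted p under 0.05 (9.88%, against 10.3% of all tested genes) and 0 were called. Libraries with the same number had correlations of 0.016, 0.226 and 0.035 between their deviations from the group means. Those with unlike numbers had -0.148 to 0.122. The numbers were not used as pairs, and these values cannot tell whether they mark pairs, since deviations from a group mean depend on each other.

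Of 43 single genes followed, 17 changed sign under at least 1 alternative. With 1 library left out, log2 differences were -0.066 to 0.25 for RPS18, -0.082 to 0.041 for RPLP1, -0.10 to 0.048 for RPL10, -0.097 to 0.070 for RPL22, -0.11 to 0.030 for RPL22L1, -0.031 to 0.26 for RPL26, -0.061 to 0.57 for RPL39, -0.038 to 0.054 for RPL7L1, -0.092 to 0.18 for RPL36A and -0.063 to 0.035 for RPS4X. They were -0.067 to 0.11 for RPS6, -0.074 to 0.17 for RPS14, -0.18 to 0.70 for RPS27, -0.19 to 0.012 for RPS27A, -0.16 to 0.17 for RPS27L, -0.0042 to 0.36 for RPL36AL and -0.060 to 0.013 for RACK1. Median-of-ratios factors, computed with and then without the members, gave 0.014 and 0.015 for RPL22, 0.017 and 0.018 for RPL7L1, 0.014 and 0.015 for RPS4X, and 0.0068 and 0.0074 for RACK1. Equal FPKM sums gave 0.0028 for RPL22, 0.0063 for RPL7L1 and 0.0029 for RPS4X. Voom gave 0.025 for RPL22, 0.029 for RPL7L1, 0.026 for RPS4X and 0.018 for RACK1. With the gene length trend removed RPL7L1 was at 0.034, RPS6 at -0.032 and RACK1 at 0.0043, and quantile normalization put RPS6 at -0.0084. With coding length and GC trends removed RPL7L1 was at 0.039, RPS4X at 0.029, RPS14 at -0.048 and RPS27L at -0.046.

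With 3 libraries per group, the spread among the MST3 libraries sets the width of the intervals, and RPS10, with 36 reads in MST3 replicate 1, is the tested member with the fewest reads. The reads of near-identical pseudogenes cannot be told from those of the parent genes in this table.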
